A study of Homo sapiens with 6 samples.

Results

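Complement is a set of blood and cell-surface proteins that mark and lyse targets, and the genes described here are 9 of the 37887 rows of a count table from BT-549 cells. They were taken by symbol, from a list chosen with earlier results of these data known. The 4 components are C1R, C1S, C3 and CFB, and the 5 inhibitors are SERPING1, CFI, CD46, CD55 and CD59. BT-549 is an established cell line of triple-negative breast cancer (TNBC). RNA-seq with a stranded poly(A) kit was performed on 3 control libraries (shCTL) and 3 libraries of cells silenced for PBRM1 (shPBRM1), a subunit of the PBAF chromatin remodeling complex. The sample titles give a control shRNA for shCTL, with DMSO as its treatment, and a PBRM1 shRNA with doxycycline (DOX) for shPBRM1. The series design describes cells that all carry a tetracycline-inducible PBRM1 shRNA vector, kept in 0.1% DMSO or given 500 ng/ml DOX, which switches on the shRNA. On either reading only the shPBRM1 cells received DOX, so that effects of DOX and of the silencing cannot be told apart. The comparison asks how complement genes change when PBRM1 is silenced. The duration of treatment and whether the line is 1 clone are not given in the sources used here. The labels say that cells were cultured in triplicate and nothing more of how the cultures were kept apart, so that p-values measure the spread between these libraries, which may in part be technical.

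Complement is triggered by the C1 complex on antibodies or damaged surfaces, where C1r activates C1s, by lectins, or by the alternative pathway, in which factor B (CFB) helps to cleave C3. All routes meet at C3, whose fragments tag the surface and lead to assembly of a lytic pore from the terminal components. Cells guard themselves at each step. C1 inhibitor (SERPING1) blocks C1r and C1s, factor I (CFI) cuts the active C3 fragment with CD46 as its cofactor, CD55 takes apart the enzymes that cleave C3, and CD59 blocks the pore. The liver makes most complement of the blood, and many other cells, tumor cells included, transcribe some of these genes, several of which respond to IFN.

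Promoter sequence was read from RefSeq tables of GRCh38.p14, which held windows for 6 of the 9 genes, C1R, CD46, CD55, CD59, CFB and CFI. Each window runs from 250 bases before a transcription start and is 300 bases long. Because these cells were studied for IFN signaling, 2 motifs were searched on both strands, the GAS letters TTCNNNGAA, known as a response element of type II IFN, and the ISRE core (GAAA, any 2 bases and GAAA again), known as an IRF binding sequence. The motifs share no position in these windows. The 6 genes have 11 windows, since C1R, CD46 and CD59 have several starts. GAS letters were found in 4 of the 11 windows, in 3 genes (C1R, CD59 and CFB), and in 7.66% of all 35116 windows. Windows of neighboring starts overlap, and 2 of these 4 windows hold the same CD59 site, so that there are 3 sites. The ISRE core was found in 1 of the 11 windows (CFB) and in 3.57% of all windows. The sequences are shown because they belong to the strongest decrease among the components that passed the filter on low counts (C1R), to an inhibitor gene that rose (CD59) and to the component nearest to the floor of detection (CFB). They are written 5′ to 3′ on the strand of the gene, with the motif in capitals. The C1R window lies at chr12:7091894-7092143 on the minus strand, inside the annotated C1R gene and outside its UTRs, with the GAS letters 86 bases before this start. The CD59 match lies within the printed stretch chr11:33736589-33736617 on the minus strand, 128 bases before a CD59 start. The CFB matches lie on the plus strand within the printed stretches chr6:31945945-31945974 (ISRE core, 140 bases before the start) and chr6:31945993-31946021 (GAS, 92 bases before the start). Both lie inside the annotated CFB gene, in the 5′ UTR of a longer CFB transcript.
C1R promoter: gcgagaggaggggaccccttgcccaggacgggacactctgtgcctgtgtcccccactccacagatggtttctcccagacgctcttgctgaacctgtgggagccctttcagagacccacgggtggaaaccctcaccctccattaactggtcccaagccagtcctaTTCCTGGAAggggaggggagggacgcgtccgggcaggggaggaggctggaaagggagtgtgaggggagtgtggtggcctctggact
CD59 GAS: ccacccggccTTCTCAGAAcctgggccag
CFB ISRE core: acttctgcagTTTCTGTTTCcttgactggc
CFB GAS: cgcttggatgTTCCGGGAAagtgatgtgg
No match was found in the windows of CD46, CD55 and CFI or in the remaining CD59 windows. The other C1R window, at chr12:7092446-7092695, covers the annotated 5′ end of the gene and held no match either. A match describes the letters of the window only, and binding was not measured in these libraries.

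Total counts were between 36429395 and 65096297 per library, and 3 counts, taken as the floor of detection, were worth between 0.0471 and 0.0804 CPM (counts scaled to library size, with TMM factors). PBRM1 levels were 158 ± 2.30 CPM in shCTL and 41.9 ± 1.22 CPM in shPBRM1 cells (SD, n = 3), with a log2 fold change (log2FC) of -1.91. The mesenchymal markers VIM, FN1, CD44, SPARC and ZEB1 summed to between 6708 and 6873 CPM in shCTL and between 6168 and 6464 CPM in shPBRM1 libraries, with members that moved in opposite directions. FN1 fell past both thresholds (553.9 to 220.9 CPM, log2FC -1.33), SPARC and ZEB1 fell by less (log2FC -0.37 and -0.55), and VIM and CD44 rose (log2FC 0.31 and 0.47). ESR1 had at most 2 counts in any library, PGR levels were 0.214 and 0.0616 CPM, and ERBB2 levels were 51.3 and 50.02 CPM in shCTL and shPBRM1 cells. Of 6 leukocyte markers, 3 passed the filter on low counts (PTPRC, CD14 and CSF1R), and their list summed to between 1.57 and 1.75 CPM in shCTL and between 1.16 and 1.46 CPM in shPBRM1 libraries, with CD3E at 0 counts throughout. The 5 hepatocyte markers summed to at most 0.453 CPM in any library. In bulk RNA, fewer cells of a type and less RNA per cell cannot be told apart.

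Of the 9 complement genes, 7 passed the filter and were tested. C1R, C1S, SERPING1 and CD55 decreased and C3 and CD59 increased by more than 2-fold in shPBRM1 cells, while CD46 increased by 1.23-fold. CFB and CFI were too low to be tested with all genes. With an adjusted p below 0.05 and more than 2-fold change by the quasi-likelihood test of edgeR, adjusted by Benjamini-Hochberg over 15450 genes, 4 of 7 tested genes were lower, where 9.68% of all tested genes were lower. In the same test 2 of the 7 were higher, where 2.87% of all tested genes were higher. In each of the 7 genes the CPM values of the groups did not overlap, in 4 with shPBRM1 lower (35% of all tested genes) and in 3 with shPBRM1 higher (33.3%). SERPING1, among the lower genes in both counts, passed the filter through its shCTL libraries, with 1 of 3 shPBRM1 libraries at the required level. It therefore nearly had to differ to be tested. The direction did not follow the division into components and inhibitors, since each held genes that decreased and a gene that increased by more than 2-fold.

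**Figure D1:**
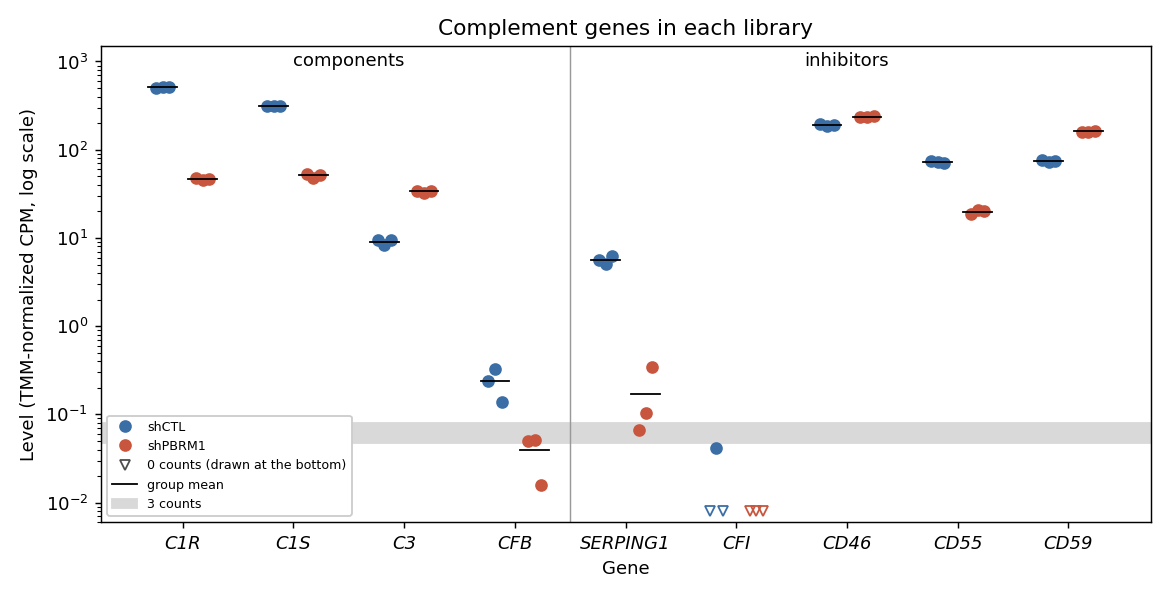
Levels of the 9 complement genes in each library, in TMM-normalized CPM on a log axis, with blue points for shCTL, red points for shPBRM1, a black line for the mean of each group without a count of 0, and a grey band for the value of 3 counts. C1R, C1S, SERPING1 and CD55 sit lower and C3, CD46 and CD59 higher in all 3 shPBRM1 libraries, and CFB and CFI lie near or below the grey band.

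C1R encodes the protease that starts the classical pathway, and it had the highest level per length of the 9 genes in shCTL cells. The gene (ENSG00000159403) lies on chromosome 12 from 7080199 to 7092607 on the minus strand in the GENCODE v29 annotation of GRCh38. C1R levels were 503, 511 and 512 CPM in shCTL replicates 1, 2 and 3 and 47.2, 45.9 and 46.5 CPM in shPBRM1 replicates 1, 2 and 3. The 3 shCTL libraries lay close together and far above the 3 shPBRM1 libraries. The means were 509 ± 4.74 and 46.6 ± 0.675 CPM (SD, n = 3), a decrease of 10.9-fold to 9.15% of the control. The log2FC was -3.45 ± 0.014 (standard error, edgeR adjusted p = 2.41e-26). By the size of the log2FC C1R ranked 187th of the 15450 tested genes.

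C1S, the protease that C1r activates and that cleaves C4 and C2, lies beside C1R on the plus strand of chromosome 12 from 6988259 to 7071032, with 9.17 kb between the genes. C1S levels were 315, 314 and 310.4 CPM in shCTL and 53.6, 48.1 and 51.6 CPM in shPBRM1 cells (replicates 1, 2 and 3). The groups did not overlap, and the lowest shPBRM1 level was that of replicate 2. The means were 313 ± 2.32 and 51.1 ± 2.79 CPM (SD, n = 3), a decrease to 16.3% of the control. The log2FC was -2.61 ± 0.046 (standard error, edgeR adjusted p = 7.16e-24). The ratio of C1R to C1S counts was 1.60, 1.63 and 1.65 with shCTL and 0.881, 0.954 and 0.901 with shPBRM1. The log2 ratio differed by -0.83 (standard error 0.037, n = 3 per group), a pair that was chosen after its values were seen and was therefore not tested. In the annotation C1R overlaps C1RL on the same strand, and C1S overlaps EMG1 on the same strand and LPCAT3 on the opposite strand, with log2FCs of -1.10, -0.20 and 0.05. How reads in the overlaps were assigned is not given in the sources used here.

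C3 encodes the protein on which all complement routes meet, and it was the component that rose. It lies on the minus strand of chromosome 19 from 6677704 to 6730562. C3 levels were 9.38, 8.29 and 9.46 CPM in shCTL and 34.2, 32.2 and 34.4 CPM in shPBRM1 cells (replicates 1, 2 and 3). Every shPBRM1 library was above every shCTL library. The means were 9.04 ± 0.652 and 33.6 ± 1.20 CPM (SD, n = 3), an increase of 3.72-fold. The log2FC was 1.90 ± 0.068 (standard error, edgeR adjusted p = 6.83e-17), higher than that of 99.7% of the tested genes. C3 overlaps GPR108 on the same strand, and GPR108 had a log2FC of 0.11 (edgeR adjusted p = 0.0963).

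CFB encodes factor B of the alternative pathway and lies in the major histocompatibility region of chromosome 6, from 31945650 to 31952084 on the plus strand. It had 9, 16 and 7 counts with shCTL and 3, 2 and 1 with shPBRM1. All shPBRM1 libraries were at or under the floor of 3 counts, and all shCTL libraries were above it. The mean levels were 0.236 ± 0.0953 and 0.0390 ± 0.0202 CPM (SD, n = 3). The ratio of the summed counts, scaled to library size, was 6.36 in favor of shCTL, with an exact 95% interval of 2.62 to 18.6 that covers counting error only. An exact two-sided permutation test of the CPM values gave p = 0.1, the smallest value that 3 libraries against 3 allow. CFB overlaps C2 and a readthrough gene on the same strand, and C2 had at most 4 counts in any library.

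SERPING1 encodes C1 inhibitor, the main plasma inhibitor of activated C1r and C1s, and it showed the largest decrease by fitted log2FC among the 7 tested genes. It lies on the plus strand of chromosome 11 from 57597387 to 57614853. SERPING1 had 212, 247 and 317 counts with shCTL and 4, 4 and 22 with shPBRM1, or 5.68, 5.08 and 6.29 CPM against 0.0666, 0.103 and 0.345 CPM. All shPBRM1 libraries were far below the shCTL libraries, and replicate 3 was the highest of them. The means were 5.68 ± 0.602 and 0.172 ± 0.151 CPM (SD, n = 3), a decrease to 3.02% of the control. The log2FC was -4.94 ± 0.57 (standard error, edgeR adjusted p = 1.40e-13). It was -6.09 without shPBRM1 replicate 3 and -4.48 without shPBRM1 replicate 1. SERPING1 passed the filter through its shCTL libraries, since 1 of the 3 shPBRM1 libraries reached the required level of 0.205 CPM, whereas the 6 other tested genes reached it in every library.

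CFI, the protease that degrades active C3 and C4 fragments, had 2 counts in shCTL replicate 2 and 0 counts in the other 5 libraries. It was at or under the floor in every library, and no fold change is given. The gene lies on chromosome 4 from 109740694 to 109802179.

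The genes of the 3 membrane-bound inhibitors changed in different directions. CD55, or decay-accelerating factor, lies on chromosome 1 from 207321376 to 207386804 and decreased. CD55 levels were 73.5, 73.5 and 71.1 CPM in shCTL and 18.6, 20.5 and 20.2 CPM in shPBRM1 cells (replicates 1, 2 and 3). The shPBRM1 values lay together and below all shCTL values. The means were 72.7 ± 1.37 and 19.7 ± 1.05 CPM (SD, n = 3), a decrease to 27.2% of the control, with a log2FC of -1.88 ± 0.048 (standard error, edgeR adjusted p = 1.10e-19).

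CD46, or membrane cofactor protein, lies 365 kb farther along the same strand of chromosome 1, from 207752057 to 207795513. CD46 levels were 198, 188 and 192 CPM in shCTL and 233, 234 and 244 CPM in shPBRM1 cells (replicates 1, 2 and 3). The groups did not overlap, although the increase was small. The means were 193 ± 5.30 and 237 ± 5.99 CPM (SD, n = 3), and the log2FC was 0.30 ± 0.031 (standard error, edgeR adjusted p = 1.87e-07). An increase of this size passed the adjusted p and not the 2-fold minimum.

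CD59, or protectin, lies on the minus strand of chromosome 11 from 33703010 to 33736491 and increased. CD59 levels were 76.7, 72.6 and 75.1 CPM in shCTL and 158, 160.5 and 164 CPM in shPBRM1 cells (replicates 1, 2 and 3). The values within each group lay close together, with no overlap. The means were 74.8 ± 2.05 and 161 ± 2.83 CPM (SD, n = 3), an increase of 2.15-fold. The log2FC was 1.11 ± 0.027 (standard error, edgeR adjusted p = 4.77e-18). CD55 and CD59 had nearly equal counts in shCTL cells, with ratios of 0.959, 1.01 and 0.946, and ratios of 0.117, 0.128 and 0.123 in shPBRM1 cells. This ratio was also chosen after its values were seen.

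To compare genes with each other, CPM were divided by the length of the merged exons. On this scale of CPM per kb, the order of levels was the same in all 3 shCTL libraries: C1R, C1S, CD46, CD55, CD59, SERPING1, C3, CFB and CFI. The top of that order was held by components, with C1R at 86.5 ± 0.805 and C1S at 48.4 ± 0.359 CPM per kb (SD, n = 3). In shPBRM1 cells CD46 and CD59 led, with 27.2 ± 0.687 and 15.5 ± 0.273 CPM per kb, followed by C1S and C1R, C3, CD55, SERPING1, CFB and CFI. C1R at 7.91 ± 0.115 and C1S at 7.91 ± 0.431 CPM per kb did not differ beyond their spread, and they changed places in replicate 2. The other neighbors kept their places in the 3 shPBRM1 libraries. C3 rose from 1.09 ± 0.0783 to 4.04 ± 0.144 CPM per kb and passed CD55, which fell from 12.3 ± 0.233 to 3.34 ± 0.178 CPM per kb.

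The summed level of the components was 136 ± 0.528 CPM per kb in shCTL and 19.9 ± 0.674 CPM per kb in shPBRM1 cells (SD, n = 3), or 6.85-fold lower. The sum of the inhibitors was 43.2 ± 0.897 and 46.2 ± 1.09 CPM per kb, or 1.07-fold higher. The components made up 75.4%, 76.3% and 76.0% of the sum of the 9 genes with shCTL and 31.1%, 29.4% and 29.7% with shPBRM1. The share of C1R went from 48.2% to 12.0%, that of CD46 from 12.3% to 41.2% and that of CD59 from 4.03% to 23.5%. These sums are descriptions. C1R and C1S made up most of the component sum in shCTL cells, and the near-equal inhibitor sums held a decrease of CD55 beside increases of CD46 and CD59. With the longest transcript as the length of each gene, the mean share of the components was 80.0% in shCTL and 38.4% in shPBRM1 cells, against 75.9% and 30.1% with merged exons. The median log2FC was -2.61 for the 3 components tested and -0.79 for the 4 inhibitors tested, beside -0.0080 for all 15450 tested genes.

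**Figure D2:**
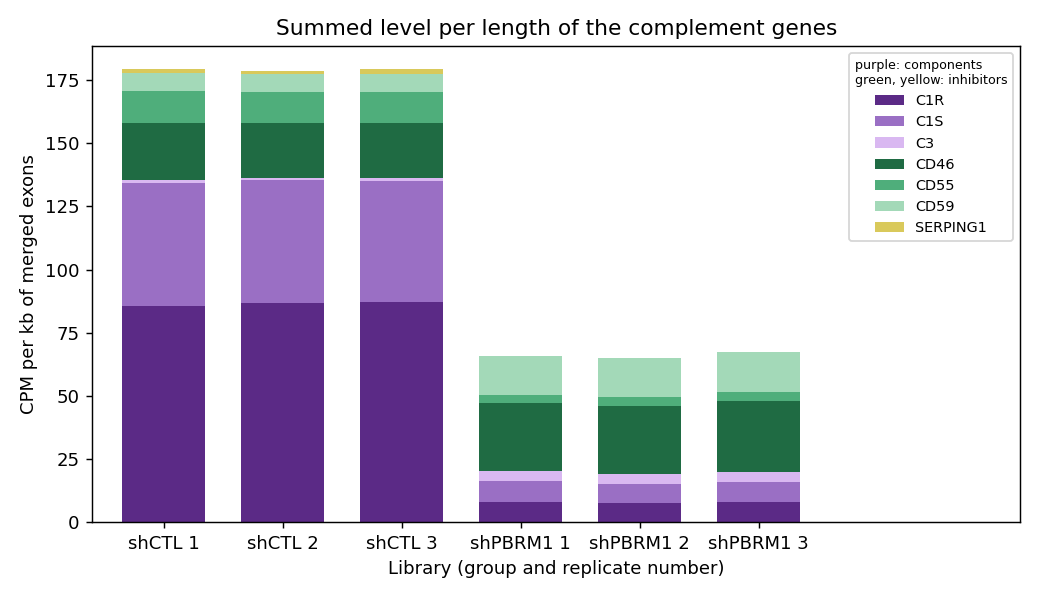
Summed levels per length of 7 complement genes in each library, in CPM per kb of merged exons, with components in purple and inhibitors in green and yellow. CFB and CFI are left out because they would not be visible, and the purple part shrinks from about 136 to about 19.9 CPM per kb while the rest of the bar goes from about 43.2 to about 46.2.

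Components were then set against the inhibitor that acts on the same step, as log2 ratios within each library, for 7 pairs. The pairs C3/CFI, CFB/CFI and CFB/CD55 gave no value, since CFI or CFB was at the floor. In the other 4 pairs the ratio rose in shPBRM1 cells, and the groups did not overlap. Each exact two-sided permutation test over the libraries gave p = 0.1 (adjusted p = 0.1 over the 4 pairs), the smallest value that 3 libraries against 3 allow, so that no pair could pass 0.05.

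C1R and C1S fell, and SERPING1, their inhibitor, fell further. The C1R/SERPING1 count ratio was 88.6, 101 and 81.5 with shCTL and 709, 446.5 and 135 with shPBRM1. The shPBRM1 ratios were wide apart, with SERPING1 counts of 4, 4 and 22 beneath them. The log2 ratio, with 2 counts added to each count, rose by 1.53 (standard error 0.57) for C1R/SERPING1 and by 2.37 (standard error 0.57) for C1S/SERPING1, or 2.89-fold and 5.16-fold. With 0.5 counts added, the rise of C1R/SERPING1 was 1.84.

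C3 rose more than CD46, and it rose while CD55 fell. The log2 ratio of C3 to CD46 rose by 1.59 (standard error 0.053, 3.01-fold) and that of C3 to CD55 by 3.77 (standard error 0.097, 13.7-fold). The C3/CD55 count ratio was 0.128, 0.113 and 0.133 with shCTL and 1.84, 1.57 and 1.71 with shPBRM1. C3 had fewer counts than CD55 in every shCTL library and more in every shPBRM1 library.

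**Figure D3:**
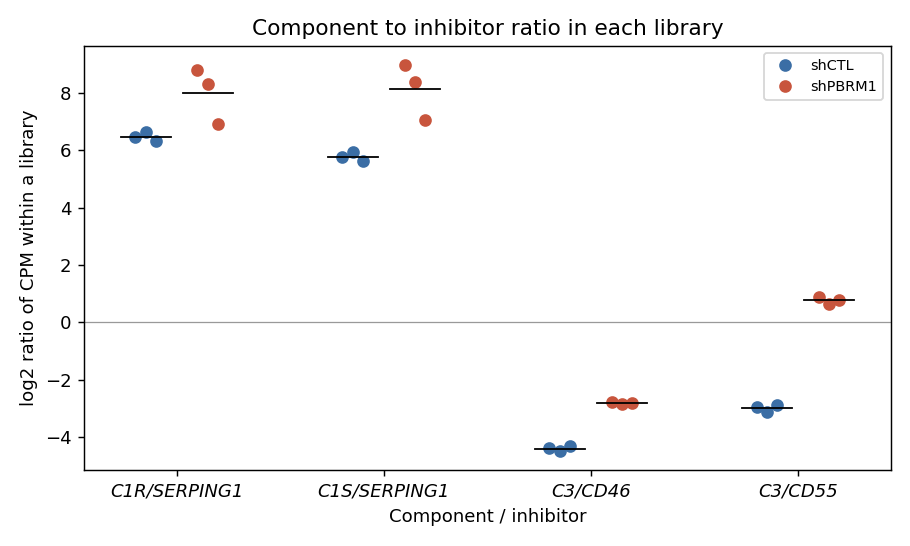
The log2 ratio of CPM of a component to its inhibitor in each library, for the 4 pairs with a value, with blue points for shCTL, red points for shPBRM1 and black lines for the group means. All red points lie above the blue points of the same pair, and the red points of the SERPING1 pairs are spread more widely than those of C3/CD46 and C3/CD55.

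A list of 50 other complement genes was examined in the same fit. Of these, 12 passed the filter, 38 did not, and 10 had no count in any library. Past the same thresholds in edgeR, 7 of the 12 were lower, where 9.68% of all tested genes were lower. In the same test 0 of the 12 were higher, which is near the share of all tested genes that were higher (2.87%). At an unadjusted p under 0.05 with the same fold change, and with DESeq2, 0 were higher as well. The median log2FC of the 12 was -1.19. C6, C7 and CR1 passed the filter through their shCTL libraries alone or nearly so, with 0, 0 and 1 of the 3 shPBRM1 libraries at the required level, and had to differ to be tested.

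Among the regulators, CLU, or clusterin, which binds the terminal components, fell from 489 ± 11.5 to 310.3 ± 14.8 CPM (SD, n = 3), with a log2FC of -0.66 ± 0.045 (standard error, edgeR adjusted p = 3.77e-12), under the 2-fold minimum.

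Of the classical pathway, C1RL, a protease related to C1R and its neighbor on chromosome 12, fell from 63.3 ± 1.55 to 29.6 ± 1.08 CPM (log2FC -1.10 ± 0.037, standard error, with an edgeR adjusted p of 9.58e-16). C1QA, C1QB and C1QC, the chains of the recognition part of C1, had 0 counts in all 6 libraries. C2, C4A and C4B, which encode the substrates of C1s, had at most 18 counts in any library, and reads of C4A and C4B can be split between near-identical copies. FCN2, a ficolin of the lectin pathway, had a log2FC of -1.29 ± 0.42 (standard error, edgeR adjusted p = 0.00133), while MASP2 did not pass the test (log2FC 0.52, edgeR adjusted p = 0.140).

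Of the terminal pathway, C5 fell from 11.7 ± 0.451 to 6.28 ± 0.631 CPM (log2FC -0.89, edgeR adjusted p = 7.78e-09). C6 had 152, 178 and 211 counts with shCTL and 8, 2 and 12 with shPBRM1, with a log2FC of -4.86 (standard error 0.40). C7 had 9, 22 and 18 counts with shCTL and 0 counts in each shPBRM1 library, which makes it at least 6.03-fold lower against a floor of 3 counts per library. Of the receptors, C5AR1, the receptor of the C5a fragment, had 168, 239 and 247 counts with shCTL and 58, 40 and 38 with shPBRM1. Its log2FC was -2.50 ± 0.24 (standard error, edgeR adjusted p = 1.87e-11). CR1, which lies between CD55 and CD46 on chromosome 1, had 16, 41 and 59 counts against 14, 6 and 6 counts, with a log2FC of -2.36 (standard error 0.50). C5AR1 and CR1 are also genes of leukocytes, whose 3 tested markers did not move together. PTPRC fell from 0.797 to 0.132 CPM and CD14 rose from 0.331 to 0.678 CPM (2.05-fold, edgeR adjusted p = 0.0160), while CSF1R was at 0.522 and 0.460 CPM (edgeR adjusted p = 0.652). The part of such cells in these values was not tested.

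**Figure D4:**
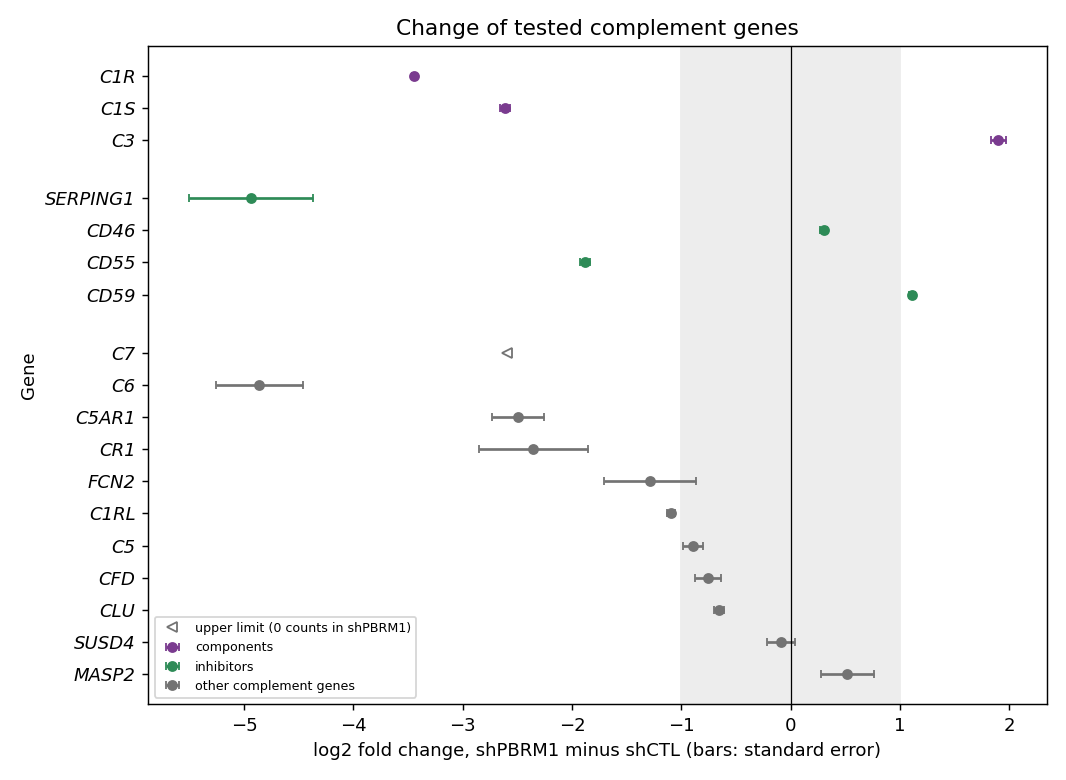
The log2FC of tested complement genes (shPBRM1 minus shCTL), with bars for the standard error from 3 libraries per group, components in purple, inhibitors in green and the other complement genes in grey. The grey band spans fold changes of less than 2, the open triangle for C7 marks an upper limit, and C3, CD46, CD59 and MASP2 are the genes to the right of 0.

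CD55 and CD59 are held in the membrane by a GPI anchor, so 25 genes of GPI anchor synthesis and remodeling were read from the same fit. Of the 23 tested, 0 passed both thresholds in either direction in edgeR, where 9.68% of all tested genes were lower and 2.87% higher. With the same fold change, the count was also 0 at an unadjusted p under 0.05 and with DESeq2. Without the fold minimum, 6 were lower and 10 were higher, and 33.2% and 31.5% of all tested genes were lower and higher. Their log2FCs lay between -0.56 (PIGT, a subunit of the transamidase that attaches the anchor) and 0.77 (PIGN, which modifies the anchor), with a median of 0.14. Each of these was smaller in size than the log2FCs of CD55 and CD59.

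The genomic neighbors of the complement genes were read in the same annotation. C1R and C1S are adjacent and both fell, and PHB2, next to C1S on the other side, had a log2FC of 0.23. Beyond C1RL, which overlaps C1R, RBP5 fell at a low level, with a log2FC of -1.43. UBE2L6, which encodes an enzyme of ISG15 conjugation, lies 29.1 kb from SERPING1 and fell from 159.7 to 17.6 CPM (log2FC -3.18 ± 0.049, standard error, with an edgeR adjusted p of 1.09e-25). On the other side of SERPING1, YPEL4 had a log2FC of -0.39 (edgeR adjusted p = 0.117). TNFSF14 and TRIP10, next to C3, had log2FCs of 0.67 and -0.36, and FBXO3, next to CD59, of 0.13.

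Tested protein-coding genes with a start within 500 kb of the start of a complement gene were then counted, beside 9.68% lower and 2.87% higher among all tested genes. These counts include the complement genes themselves, which were chosen with earlier results known, so that they are no test of the loci. SERPING1 and CR1, also counted, passed the filter mainly through shCTL, with 1 of 3 shPBRM1 libraries each at the required level. Around C1R and C1S, 7 of 36 were lower past the same thresholds, with C1R, C1S and C1RL among the 7, and 2 were higher (CDCA3 and NCAPD2). Around SERPING1, 5 of 17 were lower, and SERPING1, UBE2L6, SMTNL1, SLC43A1 and RTN4RL2 are these 5, and 0 were higher. Around CD55 and CD46, 4 of 7 were lower (CD55, CR1, IL24 and PLXNA2) and 0 were higher. Around C3, C3 itself was the 1 higher gene of 18 and SLC25A41 the 1 lower gene (log2FC -1.79). Around CD59, CD59 itself was the 1 higher gene of 7 and LMO2 the 1 lower gene (log2FC -4.33). CDCA3, NCAPD2, SMTNL1, SLC43A1, RTN4RL2, IL24, SLC25A41 and LMO2 were named after their values were seen.

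**Figure D5:**
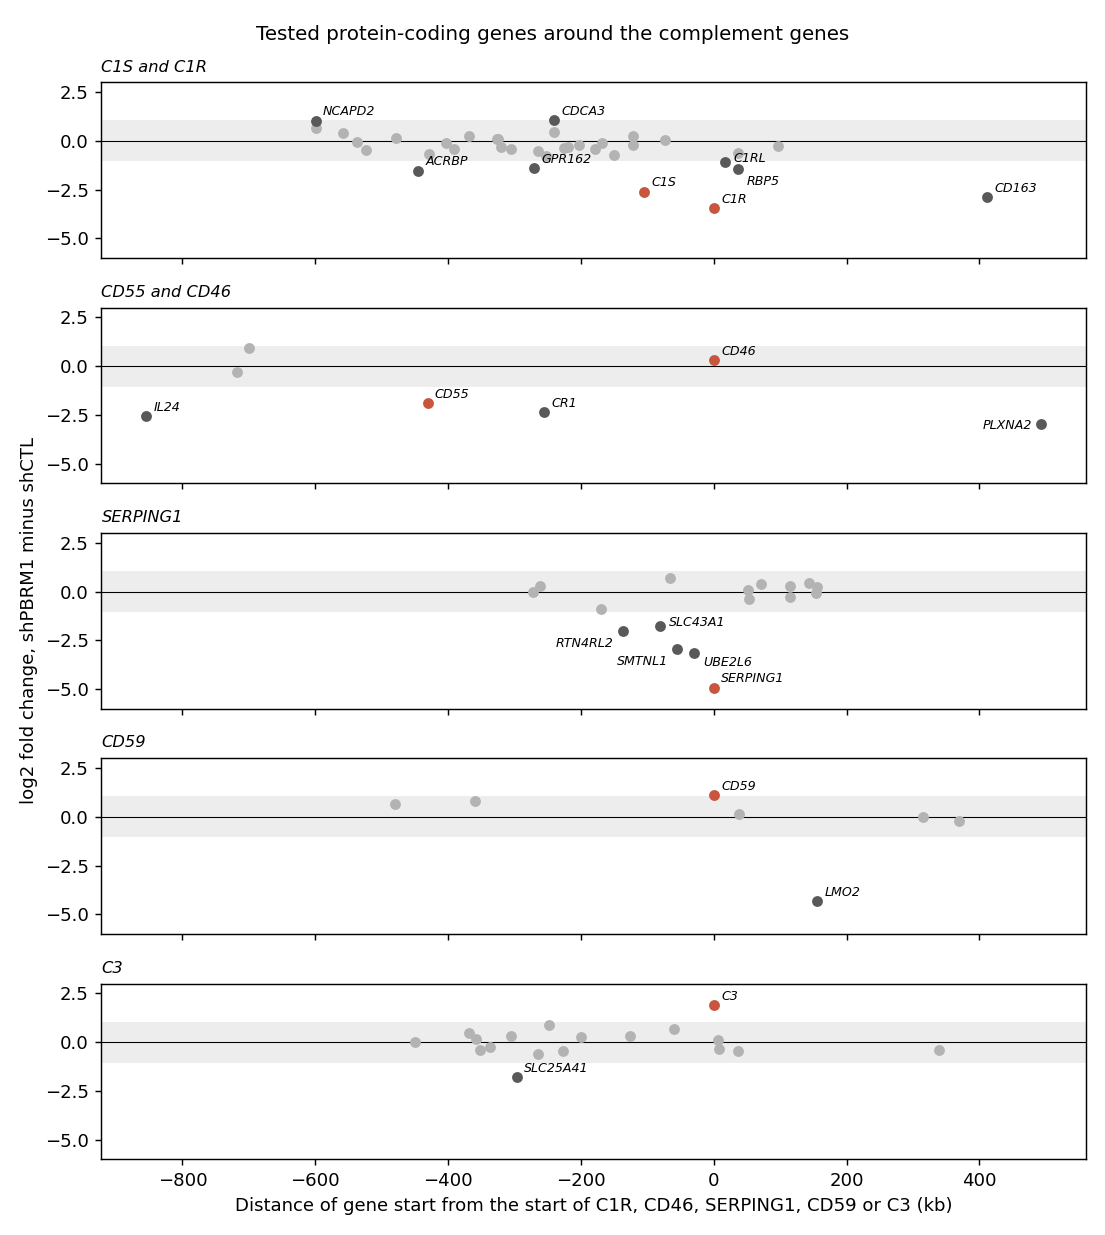
The log2FC (shPBRM1 minus shCTL) of each tested protein-coding gene that starts within 500 kb of a complement gene of the panel, against the distance in kb of its start from the start of C1R, CD46, SERPING1, CD59 or C3, with complement genes of the 9 in red, other genes past the thresholds of adjusted p 0.05 and 2-fold in dark grey and the rest in light grey. C3 and CD59 are the genes above the grey band of changes under 2-fold in their panels, and the genes below the band near SERPING1 lie on one side of it.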

How the data were processed

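RNA-seq of BT-549 cells was analyzed in 2 groups of 3 libraries, with groups and replicate numbers taken from the sample titles. What the authors deposited is a table of raw counts, not normalized, by gene symbol. Per the submitters' processing notes, CASAVA 1.8.2, STAR 2.7.9a, featureCounts and DESeq2 1.24.0 were used with build GRCh38.p7. The annotation and the strand setting are not given in the sources used here. The control columns carry the cell line and replicate number without a group word and were matched to the control titles. Of 37887 rows, 14 held dates in place of symbols and 12608 had no count.

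Counts were normalized by TMM and tested with edgeR 4.0.16 in R 4.3.3 (filterByExpr, quasi-likelihood test, Benjamini-Hochberg adjustment over 15450 genes). Standard errors come from log2 CPM with 2 counts added to each count. Positions and lengths are those of GENCODE 29. At these depths intervals and the floor of 3 counts cover counting error only. Libraries of a group differed by more than sampling noise (chi-square per degree of freedom 4.94 to 25.1).

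The complement genes and lists were chosen with earlier results of these data known. Named genes were the 9 complement genes, PBRM1, other complement genes that passed the thresholds or exceeded 10 CPM, neighbors and overlapping genes, and for each changed gene the 3 genes nearest to it. Other genes are said to have been named after their values were seen. Some listed genes were counted but their own values are not reported.

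The replicate numbers come from the sample titles. Libraries with the same number deviated together, with correlations, after subtracting each group's mean, of 0.734, 0.593 and 0.419 over 5622 genes, against -0.671 to 0.464 for different numbers, so that the number was also fitted as a block. The other alternatives were RLE factors, library size only, no filter, a mean of at least 50 counts, DESeq2 1.42.0, glmTreat against 2-fold, no fold minimum, an adjusted p under 0.001, 0.5 counts added, the longest transcript, and each library left out. On simulated counts with 200 genes changed 4-fold, edgeR recovered 200 among 15405 tested with 0 false calls, and with none changed made 0 calls among 15412. These simulated counts had the same dispersion for every gene, no shared deviation by replicate number, and changes only in genes expected over 50 counts. They do not cover calls at low counts.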

Additional observations from a re-analysis of the deposited data

How the results depend on the processing

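The log2 fold changes of the 7 tested complement genes kept their direction and their side of the thresholds (adjusted p and 2-fold together) under each of the 13 alternatives run for each gene. Without the fold minimum, CD46 was counted as well, and 3 genes were higher. With the replicate block, the log2 fold change of SERPING1 was -4.98, that of CD59 was 1.11, and 4 of the 9 genes were lower and 2 were higher by more than 2-fold, and the block changed no other call. For the component to inhibitor ratios, the pairing by replicate number gave an exact sign-flip p of 0.25 for each of the 4 pairs, the smallest that 3 pairs allow. Leaving out each library in turn, 4 to 5 genes were lower and 2 were higher. CFB, when it passed the filter, was the fifth, as it was without a filter and with DESeq2. On leaving out libraries the median log2 fold change was between -2.64 and -2.57 for the components and between -0.81 and -0.76 for the inhibitors. The share of the components was between 75.7% and 76.1% in shCTL and between 29.6% and 30.4% in shPBRM1 cells, and with the longest transcript 80.0% and 38.4%, which follows from other lengths alone. The log2 ratio rose by 1.14 to 2.08 for C1R/SERPING1, 1.95 to 2.91 for C1S/SERPING1, 1.55 to 1.63 for C3/CD46 and 3.70 to 3.83 for C3/CD55. Of the other complement genes, 7 to 9 were lower. Their number was 11 without a filter, when more genes were tested, and 4 at a mean of at least 50 counts, when fewer were. Without the fold minimum, 6 GPI anchor genes were lower and 10 were higher, against 0 and 0. With 3 libraries per group, the ratio tests could not pass 0.05, and counts of CFB and CFI were too low for a test with all genes.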

Other observations

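For each complement gene changed by more than 2-fold, the 3 genes with the most similar pattern were taken from the 11541 genes averaging 100 counts or more, by the Euclidean distance of log2 CPM centered on the mean of each gene over the 6 libraries. The measure reads mostly the size of the group difference. Nearest to C1R were COL15A1, a collagen chain of basement membrane zones, at a distance of 0.0944, DDX60, an IFN-induced helicase, at 0.144, and LINC01133 at 0.169. Nearest to C1S were SCARA5 at 0.122, IL26 at 0.135 and COL6A3 at 0.139. Nearest to CD55 were CTSH, a lysosomal protease, at 0.0854, PCGF5 at 0.0982 and TMEM173, which encodes STING, at 0.106.

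Among the genes that rose, C3 was nearest to CD83 at 0.145, HIST1H3G at 0.155 and PTPRZ1 at 0.172, and CD59 was nearest to NDC1 at 0.0527, GALNT1 at 0.0582 and LSM3 at 0.0652. SERPING1 had no gene as near, with USP18, which removes ISG15 from proteins, at 1.16, PTGFRN at 1.16 and LY6E at 1.16. Its counts of 4, 4 and 22 in the shPBRM1 libraries set it apart from genes with a narrower spread. The log2 ratio of CD55 to CD46, a pair chosen after its values were seen, fell by 2.18 (standard error 0.048) over 3 libraries per group and was not tested.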
